A study of Mus musculus with 8 samples.

Results

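The values of 10 genes that mark mast cells, basophils and eosinophils were followed in mouse bone marrow progenitors that had lost Cbfb and in a heterozygous control. They were chosen by name: the platform's annotation had to give a row of the array table exactly 1 of the listed symbols, and each of the 10 genes met this with 1 row, out of 19938 genes with such a row. By the cells that use them, 4 are shared by mast cells and basophils (Cpa3, Hdc, Ms4a2, Fcer1a), 2 belong to basophils (Mcpt8, Prss34) and 4 to eosinophils (Prg2, Prg3, Epx, Il5ra). The knockout (KO) was Vav1-iCre x Cbfb(F/F), with both Cbfb alleles floxed, and the control (Het) was Vav1-iCre x Cbfb(F/+). Both thus carried the Vav1-driven iCre recombinase, which acts across blood cells. Het mice had a floxed allele too, open to deletion by iCre, beside an unfloxed allele, so no group was wild type. From mice aged 7 weeks on a C57BL6 background backcrossed for 12 generations, LSK cells (lineage-negative, Sca-1 and Kit positive, a fraction that holds the blood stem cells) and GMP cells (granulocyte and macrophage progenitors) were sorted at a purity above 98%, with about 200000 cells per sample. This gave KO LSK, Het LSK, KO GMP and Het GMP, each on 2 Affymetrix Mouse Gene 1.0 ST arrays. In the labels a group's arrays are biological replicates, but none is tied to a particular mouse, and the p-values therefore reflect only how much these arrays varied.

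Mast cells, basophils and eosinophils are cells with granules that act in allergy and in defence against parasites. Mast cells and basophils bind IgE through a high-affinity receptor and release histamine and proteases from their granules, while eosinophil granules hold strongly basic proteins and a peroxidase. In mouse bone marrow these lineages arise from progenitors near the branch of the megakaryocyte and erythroid lineages and from the granulocyte and macrophage branch, and GATA factors act in all of them. Cbfb is the partner subunit of the Runx factors, with which it forms core-binding factor.

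All values are log2 expression values made by RMA, and a difference of 1 is a change of 2-fold. Array medians over the 21789 tested rows lay between 4.92 and 5.09. RMA gives no detection call, so a value below them is not shown to be expression, and changes of dim genes may be understated. Within groups, the correlation between arrays was 0.990 to 0.995. Cbfb stood at 6.93 and 6.98 in KO LSK, against 7.56 and 7.55 in Het LSK, and at 6.48 and 6.96 in KO GMP, against 7.53 and 7.65 in Het GMP, so both KO arrays were lower in each cell type (adjusted p = 0.0557 in LSK and 0.0130 in GMP by limma). Whether the probes lie inside the deleted part was not given in the sources used here. Of 10 measured genes of the sort gates and of their usual markers, 3 were higher and 2 lower in KO LSK, and 2 higher and 0 lower in KO GMP. Of all tested rows, 7.73% had an adjusted p under 0.05 by limma in LSK and 6.02% in GMP. Flt3, a receptor of multipotent progenitors with lymphoid potential, stood at 7.09 and 6.56 in KO LSK, against 10.20 and 10.27 in Het LSK (-3.41, adjusted p = 0.000146). Slamf1, a marker of stem cells, rose by 2.40 in LSK (adjusted p = 0.000399) and by 3.42 in GMP (adjusted p = 7.78e-05). Fcgr2b, which the antibodies of GMP gates can bind, rose by 2.44 in LSK and by 0.80 in GMP. Its GMP call was lost with all 35556 rows tested (adjusted p = 0.0919 by limma) and when either Het GMP array or KO GMP replicate 1 was dropped. Fcgr3 rose by 1.07 in LSK (adjusted p = 0.0465, lost when any of 7 of the 8 arrays was dropped), and Mpo fell by 1.19 in LSK (adjusted p = 0.00477). Kit, Cd34, Elane, Prtn3 and Ctsg did not pass in either cell type. The cells sorted under one name thus differed by genotype in some of these markers, and their part in the members' values was not tested. Ly6a, which encodes Sca-1, was not analysed here. Bulk arrays cannot tell apart fewer cells of a type and less RNA per cell.

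**Figure D1:**
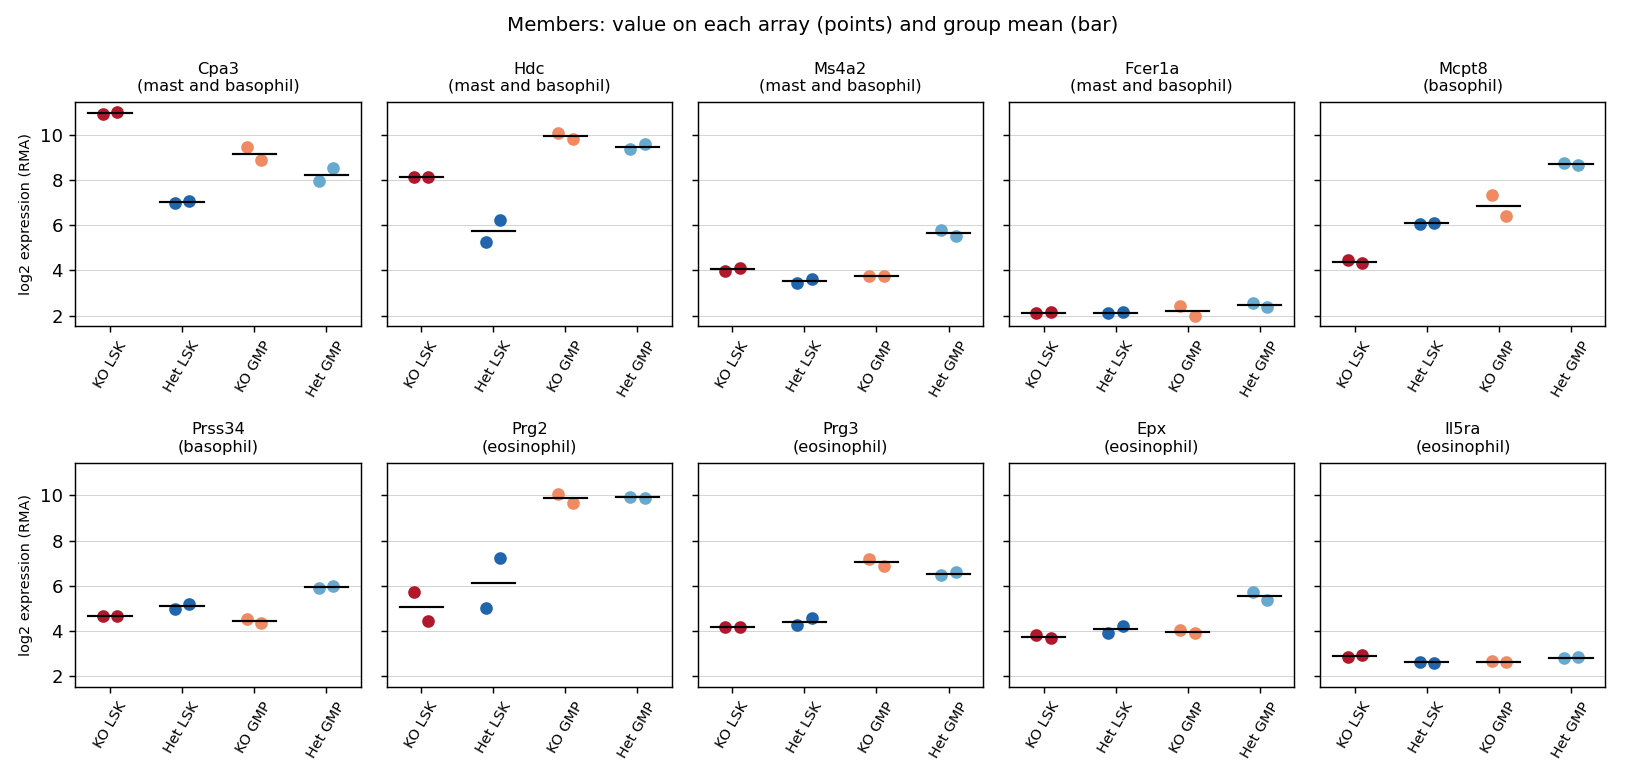
Value of each of the 10 genes on each of the 8 arrays (points, log2 expression) with the group mean (bar), for KO LSK, Het LSK, KO GMP and Het GMP. Cpa3 lies highest in KO LSK, at 10.90 and 10.99, while Ms4a2, Prss34 and Epx stand out in Het GMP, and Fcer1a and Il5ra stay below 3 on all arrays.

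In KO LSK cells the mast cell and basophil genes split. Cpa3 and Hdc rose, by 3.92 and 2.38 against Het LSK, and the basophil protease gene Mcpt8 fell by 1.69. No eosinophil gene passed the test. Over all members, 2 rose and 1 fell, and 7 did not pass (limma, Benjamini-Hochberg adjustment over all tested rows, adjusted p under 0.05). Of all tested rows, 7.73% passed in this comparison, 3.02% higher and 4.71% lower in KO. The median difference was -0.12 over the 10 members and 0.0096 over all rows.

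In KO GMP cells the losses were wider. Ms4a2, Mcpt8, Prss34 and Epx fell, each by 1.49 to 1.90 on the log2 scale, so that each class had at least 1 member that fell. Of these, Ms4a2, Prss34 and Epx averaged 3.55, 5.09 and 4.09 in Het LSK, near or below the array medians. In Het GMP they averaged 5.65, 5.94 and 5.55. They thus had less room to fall in LSK, and the part of this in the wider losses was not tested. Cpa3 was the only member higher with an adjusted p under 0.05, by 0.93, and that call was fragile. In all, 1 rose, 4 fell and 5 did not pass, where 6.02% of all rows passed, 3.45% higher and 2.57% lower. The median difference was -0.23 over the members and -0.017 over all rows.

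**Figure D2:**
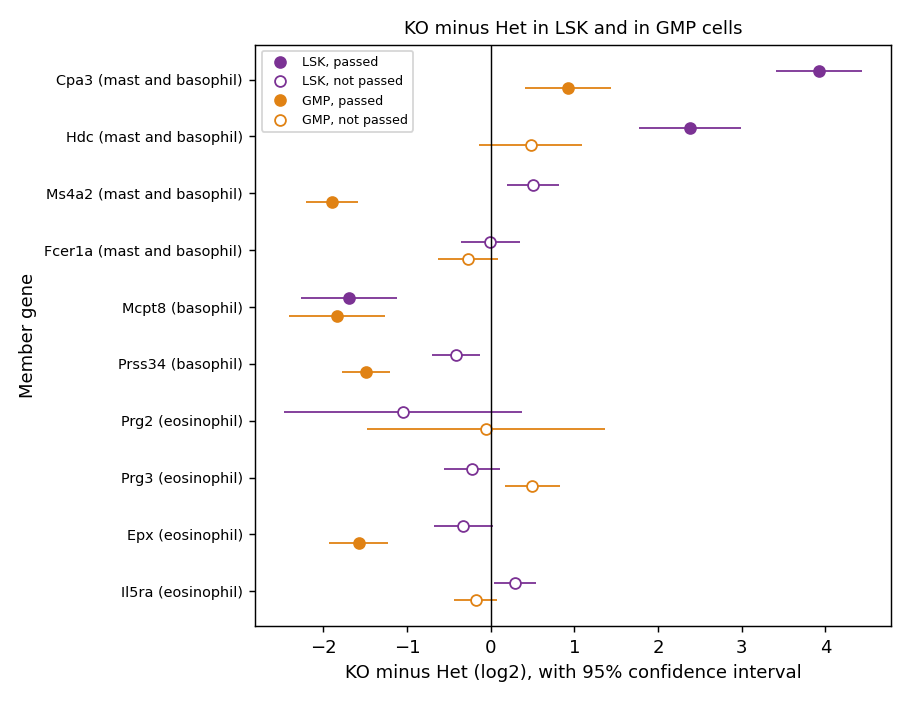
KO minus Het for each member in LSK and in GMP cells, on the log2 scale, with limma's 95% confidence interval for a single gene (not adjusted for the number of genes). Filled points passed at an adjusted p under 0.05. Cpa3 and Hdc lie far to the right in LSK, Mcpt8 to the left in both cell types, and Ms4a2, Prss34 and Epx to the left in GMP.

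Cpa3 encodes carboxypeptidase A3, a granule protease of mast cells and of basophil and mast cell progenitors. It stood at 10.90 and 10.99 in KO LSK, against 6.98 and 7.08 in Het LSK. The arrays of each genotype nearly coincided and the groups were far apart, by 3.92 (SE 0.23, adjusted p = 2.87e-05), which is 15.1-fold and the 13th largest difference among the 21789 rows. In KO GMP it stood at 9.44 and 8.88, against 7.93 and 8.54 in Het GMP. The KO arrays were again higher, by a smaller margin of 0.93 (SE 0.23, adjusted p = 0.0475), and here the spread within each genotype was 0.39 and 0.43 (SD). In GMP it no longer passed when KO GMP replicate 1 was dropped (0.65, adjusted p = 0.281) or Het GMP replicate 1 was dropped (0.62, adjusted p = 0.305), nor when any of the 4 LSK arrays was dropped (adjusted p between 0.0520 and 0.0763). The effect in GMP minus that in LSK was -2.99 (SE 0.32, adjusted p = 0.00294), so the rise was larger in LSK, and this difference passed with each array left out in turn.

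Hdc encodes histidine decarboxylase, the enzyme that makes histamine. It stood at 8.12 and 8.12 in KO LSK, against 5.24 and 6.23 in Het LSK, where the arrays differed by nearly 1 unit. Both KO arrays were above both Het arrays, and Hdc rose by 2.38 (SE 0.27, adjusted p = 0.000782), which is 5.21-fold. In KO GMP it stood at 10.07 and 9.80, against 9.35 and 9.56 in Het GMP. Again the groups did not overlap, but the difference of 0.48 (SE 0.27, adjusted p = 0.440) missed the threshold, and its 95% interval ran from -0.14 to 1.09. The difference between the effects was -1.91 (SE 0.38, adjusted p = 0.0402). It no longer passed when KO LSK replicate 1 (-1.91, adjusted p = 0.0634) or 2 (-1.90, adjusted p = 0.0861) was dropped. The same held for KO GMP replicate 1 (-2.04, adjusted p = 0.0851) and 2 (-1.77, adjusted p = 0.147) and for Het GMP replicate 1 (-2.01, adjusted p = 0.116) and 2 (-1.80, adjusted p = 0.148).

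Ms4a2 and Fcer1a encode chains of the high-affinity IgE receptor: the beta chain, which amplifies its signal, and the alpha chain, which binds IgE. Ms4a2 stood at 3.76 and 3.74 in KO GMP, against 5.79 and 5.51 in Het GMP. It fell by 1.90 (SE 0.14, adjusted p = 8.39e-05), to values within the range of the LSK arrays. In KO LSK it stood at 3.99 and 4.12, against 3.46 and 3.63 in Het LSK, all below the array medians, and the difference of 0.51 (SE 0.14) missed the threshold (adjusted p = 0.0601). The effects in the 2 cell types differed by -2.41 (SE 0.19, adjusted p = 0.00128), a call kept with each array left out in turn. Fcer1a stood at 2.10 and 2.17 in KO LSK, against 2.13 and 2.15 in Het LSK, and at 2.42 and 1.98 in KO GMP, against 2.56 and 2.39 in Het GMP. These values are near the floor of the table, and neither difference passed (-0.0056, adjusted p = 0.990, in LSK and -0.27, adjusted p = 0.443, in GMP).

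Mcpt8 encodes mast cell protease 8, which despite its name is a protease of mouse basophils, and was the member that fell in both cell types. It stood at 4.45 and 4.32 in KO LSK, against 6.07 and 6.09 in Het LSK, and fell by 1.69 (SE 0.25, adjusted p = 0.00362). Mcpt8 values were 7.34 and 6.39 in KO GMP, against 8.73 and 8.67 in Het GMP, a fall by 1.84 (SE 0.25, adjusted p = 0.00274). The KO GMP arrays stood apart from each other (SD 0.67), and both lay below the Het GMP arrays. The difference between the effects was -0.14, with a 95% interval from -0.96 to 0.67 (adjusted p = 0.930). Both calls were kept with each array left out in turn. Mcpt8 belongs to a family of related protease genes, and cross-hybridisation between them was not tested.

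Prss34 encodes mast cell protease 11, a protease of basophils. It stood at 4.53 and 4.38 in KO GMP, against 5.89 and 6.0 in Het GMP, and fell by 1.49 (SE 0.13, adjusted p = 0.000204), to below the array medians. In KO LSK it stood at 4.69 and 4.68, against 4.98 and 5.21 in Het LSK. The KO arrays were lower there too, but the difference of -0.41 (SE 0.13) missed the threshold (adjusted p = 0.0983). The effect was more negative in GMP by 1.08 on the log2 scale (the difference between the effects was -1.08, SE 0.18, adjusted p = 0.0177). Dropping a single array ended this call in 4 cases: KO GMP replicate 2 (-1.0, adjusted p = 0.0878), Het GMP replicate 1 (-1.13, adjusted p = 0.0648) or 2 (-1.02, adjusted p = 0.0873), and Het LSK replicate 1 (-0.97, adjusted p = 0.0612).

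The promoter windows of the 5 mast cell and basophil genes that passed for KO against Het in either cell type are shown so that the sequence can be read beside the values. Each runs from 250 bases before to 50 bases after the RefSeq start (assembly GRCm38.p6), 5′ to 3′ on the gene's strand. Capitals mark matches on either strand to the letters TGTGGT and the variant TGCGGT for core-binding factor. For GATA factors they mark AGATAA, the variant TGATAA, and the forms ending in G, which are AGATAG and its variant TGATAG. A match on the other strand appears as its reverse complement.
Cpa3, chr3:20242132-20242431, minus strand: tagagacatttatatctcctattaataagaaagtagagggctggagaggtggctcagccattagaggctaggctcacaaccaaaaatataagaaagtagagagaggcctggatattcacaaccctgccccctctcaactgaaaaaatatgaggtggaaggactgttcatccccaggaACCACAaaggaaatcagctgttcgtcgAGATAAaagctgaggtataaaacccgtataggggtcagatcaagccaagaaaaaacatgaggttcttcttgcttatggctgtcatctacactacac
Hdc, chr2:126618629-126618928, minus strand: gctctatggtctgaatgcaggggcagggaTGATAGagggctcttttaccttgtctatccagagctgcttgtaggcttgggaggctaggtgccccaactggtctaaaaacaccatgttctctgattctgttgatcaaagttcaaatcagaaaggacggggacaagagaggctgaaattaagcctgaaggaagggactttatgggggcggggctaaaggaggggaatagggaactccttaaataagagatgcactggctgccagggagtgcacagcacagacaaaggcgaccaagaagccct
Ms4a2, chr19:11623670-11623969, minus strand: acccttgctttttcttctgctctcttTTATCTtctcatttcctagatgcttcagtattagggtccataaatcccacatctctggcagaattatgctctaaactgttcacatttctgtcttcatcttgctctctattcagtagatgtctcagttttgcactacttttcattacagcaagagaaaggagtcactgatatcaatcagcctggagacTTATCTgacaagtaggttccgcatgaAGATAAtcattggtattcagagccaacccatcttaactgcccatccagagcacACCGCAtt
Mcpt8, chr14:56085148-56085447, minus strand: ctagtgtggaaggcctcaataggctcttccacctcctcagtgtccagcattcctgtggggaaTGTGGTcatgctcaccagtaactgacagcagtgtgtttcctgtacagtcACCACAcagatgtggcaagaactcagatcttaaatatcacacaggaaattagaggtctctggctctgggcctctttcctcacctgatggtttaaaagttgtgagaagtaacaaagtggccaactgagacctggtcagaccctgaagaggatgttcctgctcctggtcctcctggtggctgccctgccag
Prss34, chr17:25298144-25298443, plus strand: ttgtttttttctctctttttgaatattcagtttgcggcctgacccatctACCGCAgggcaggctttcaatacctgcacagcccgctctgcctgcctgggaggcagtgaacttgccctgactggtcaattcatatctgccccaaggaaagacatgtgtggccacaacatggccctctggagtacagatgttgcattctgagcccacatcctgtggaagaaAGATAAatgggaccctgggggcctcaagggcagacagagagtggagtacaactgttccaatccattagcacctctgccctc
Cpa3, which rose in KO LSK, has a core-binding factor match at -73 from the start and a GATA match at -46. Hdc, which also rose there, has no core-binding factor match and a GATA match at -221. Ms4a2 has 3 GATA matches, at -224, -37 and -11, and a core-binding factor match at 42, after the start. Mcpt8 has core-binding factor matches at -188 and -139 and no GATA match in this window. Prss34 has a core-binding factor match at -201 and a GATA match at -31.

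Windows were found for 9 of the 10 members, all but Prg2. A core-binding factor match stood in 6 of the 9 and in 22.4% of all 32851 promoter windows of this length, a GATA match in 7 of the 9 and in 29.8%, and both in 5 of the 9 and in 6.8%. Fcer1a, which did not pass in any comparison, has both kinds of match, and Il5ra, likewise, a GATA match at -74. Epx, which fell in KO GMP, has neither. No match overlapped another in the members' windows. A match in a window describes its letters and not binding.

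Of the eosinophil genes, Prg2 and Prg3 encode eosinophil major basic protein and its homolog. Prg2 stood at 5.72 and 4.44 in KO LSK, against 5.02 and 7.24 in Het LSK. The groups overlapped, with an SD of 0.91 in KO and 1.57 in Het, and the difference of -1.05 (SE 0.63) did not pass (adjusted p = 0.420). Without Het LSK replicate 1, which leaves the higher Het array alone, it was -2.16 and passed (adjusted p = 0.0353), and without Het LSK replicate 2 it was 0.064 (adjusted p = 0.973). In KO GMP it stood at 10.05 and 9.68, against 9.95 and 9.89 in Het GMP, groups that overlapped (-0.056, 95% interval -1.48 to 1.36, adjusted p = 0.979).

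Neutrophil granule genes moved with Prg2 among the LSK arrays. The mean over 10 measured neutrophil markers was 9.30 and 8.58 in KO LSK, against 9.01 and 10.03 in Het LSK, and 11.08 and 10.77 in KO GMP, against 11.34 and 11.78 in Het GMP. Ngp, a granule protein gene of neutrophils, stood at 8.31 and 7.07 in KO LSK, against 7.95 and 9.85 in Het LSK, and Camp, a cathelicidin gene, at 9.32 and 8.25, against 8.74 and 10.48. In each genotype, the LSK array with more Prg2 also had more Ngp and Camp. All 10 markers lay above the array median on every array. Their part in the Prg2 values was not tested.

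Prg3 stood at 4.20 and 4.20 in KO LSK, against 4.28 and 4.56 in Het LSK (-0.22, adjusted p = 0.462). Prg3 values were 7.17 and 6.90 in KO GMP, against 6.48 and 6.60 in Het GMP. Both KO GMP arrays were higher, yet the difference of 0.50 (SE 0.15) missed the threshold (adjusted p = 0.0931). When dim rows were left out, which lowers the number of rows tested, it passed (adjusted p = 0.0496).

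Epx encodes eosinophil peroxidase. It stood at 4.04 and 3.90 in KO GMP, against 5.71 and 5.39 in Het GMP, and fell by 1.58 (SE 0.16, adjusted p = 0.000460), to below the array medians. In KO LSK it stood at 3.82 and 3.71, against 3.94 and 4.25 in Het LSK, all dim, and the difference of -0.33 did not pass (adjusted p = 0.296). The effects differed by -1.25 (SE 0.22, adjusted p = 0.0235), and this no longer passed when KO GMP replicate 1 (-1.32, adjusted p = 0.0619) or 2 (-1.18, adjusted p = 0.101), Het GMP replicate 1 (-1.09, adjusted p = 0.0990) or Het LSK replicate 1 (-1.10, adjusted p = 0.0724) was dropped. Il5ra encodes the alpha chain of the interleukin 5 receptor, the growth and survival receptor of eosinophils. It stood at 2.85 and 2.97 in KO LSK, against 2.64 and 2.60 in Het LSK, and at 2.67 and 2.63 in KO GMP, against 2.81 and 2.86 in Het GMP. The groups did not overlap in either cell type, but neither difference passed (0.29, adjusted p = 0.192, and -0.18, adjusted p = 0.481), at values far below the array medians.

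Over the members, KO and Het arrays did not overlap for 8 of 10 genes in LSK (4 higher and 4 lower in KO), where this held for 45.5% of all rows, 22.8% higher and 22.7% lower. In GMP it held for 8 of 10 (3 higher and 5 lower) and for 51.3% of all rows, 23.4% higher and 27.9% lower. The test of the difference between the effects in GMP and LSK passed for 5 members, Cpa3, Hdc, Ms4a2, Prss34 and Epx, against 2.29% of all rows. All 5 were negative, and 0.601% of all rows passed in that direction. For Cpa3 and Hdc this meant a larger rise in LSK, and for Prss34 and Epx a fall that passed in GMP. For Ms4a2 it meant a fall that passed in GMP beside a difference of 0.51 in LSK that did not pass. In Het LSK, Ms4a2 and Epx lay below the array medians and Prss34 near them. This left less room for a fall there, and its part in these results was not tested.

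The step between the cell types, GMP against LSK, was compared within each genotype. In KO, 4 of the 10 members were higher in GMP and 1 was lower, where 6.05% of all rows passed, 3.66% higher and 2.39% lower in GMP. In Het, 8 were higher and 0 lower, where 17.5% of all rows passed, 7.9% higher and 9.6% lower. The median difference was 0.14 in KO and 1.78 in Het over the members, and -0.021 in KO and 0.0066 in Het over all rows. The arrays of the 2 cell types did not overlap for 9 members in KO, 5 higher and 4 lower in GMP (47.5% of all rows, 21.5% higher and 26% lower). In Het they did not overlap for 10 members, all higher (57.9% of all rows, 29.7% higher and 28.2% lower).

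Cpa3 turned round: GMP minus LSK was -1.79 in KO (SE 0.23, adjusted p = 0.00211) and 1.21 in Het (SE 0.23, adjusted p = 0.00602). For Ms4a2, Prss34 and Epx the higher level in GMP was seen in Het and did not pass in KO. Ms4a2 differed by -0.31 in KO (adjusted p = 0.269) and by 2.10 in Het (adjusted p = 2.37e-05). Prss34 differed by -0.23 in KO (adjusted p = 0.380) and by 0.85 in Het (adjusted p = 0.00189). Epx differed by 0.21 in KO (adjusted p = 0.533) and by 1.46 in Het (adjusted p = 0.000291). The tests of these changes in the step are the same as those of the difference between the KO effects given above.

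The 4 members that were higher in GMP in KO were Hdc, Mcpt8, Prg2 and Prg3, and they were also higher in Het. Hdc was higher by 1.82 in KO (SE 0.27, adjusted p = 0.00489) and by 3.72 in Het (SE 0.27, adjusted p = 3.61e-05). Mcpt8 was higher by 2.48 in KO (SE 0.25, adjusted p = 0.000640) and by 2.62 in Het (SE 0.25, adjusted p = 0.000158). Prg2 was higher by 4.78 in KO (SE 0.63, adjusted p = 0.00253), the third largest difference of all rows, and by 3.79 in Het (SE 0.63, adjusted p = 0.00311). Prg3 was higher by 2.84 in KO (SE 0.15, adjusted p = 1.47e-05) and by 2.12 in Het (SE 0.15, adjusted p = 2.85e-05). Fcer1a and Il5ra passed in neither genotype, with differences of 0.065 and -0.26 in KO and of 0.33 and 0.21 in Het.

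**Figure D3:**
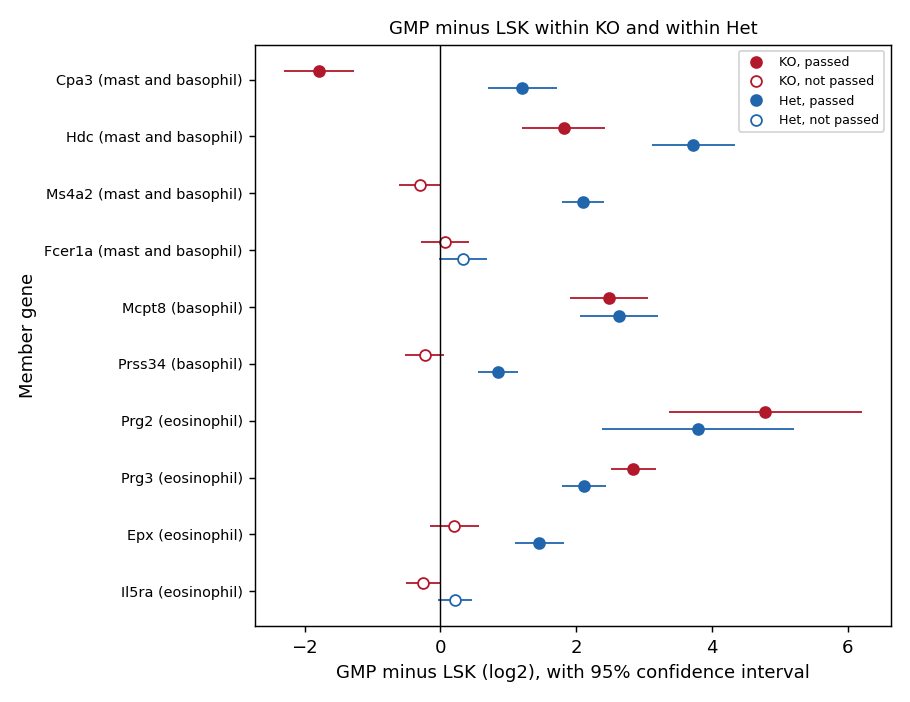
GMP minus LSK for each member within KO and within Het, on the log2 scale, with limma's 95% confidence interval for a single gene. Filled points passed at an adjusted p under 0.05. Hdc, Mcpt8, Prg2 and Prg3 lie to the right in both genotypes, Cpa3 lies on opposite sides, and Ms4a2, Prss34 and Epx lie near 0 in KO only.

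The order of the 4 groups therefore differed between members. For Cpa3 it was KO LSK, KO GMP, Het GMP and Het LSK from high to low, with no array out of place. For Hdc it was KO GMP, Het GMP, KO LSK and Het LSK, with the GMP groups not differing by the test. For Mcpt8 it was Het GMP, KO GMP, Het LSK and KO LSK, and the arrays of neighbouring groups did not overlap. For Ms4a2, Prss34 and Epx, Het GMP stood above the other groups. KO GMP lay among the LSK arrays for Ms4a2 and Epx and below all of them for Prss34. For Prg2 and Prg3 the order followed the cell type, and the genotypes did not differ by the test within either.

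Each member's profile of 4 group means, centred on its own mean, was set against those of the 2160 genes whose group means spanned at least 1 log2 unit. The measure is the root mean square distance in log2 units, over 4 groups of 2 arrays. Fcer1a (span 0.34) and Il5ra (span 0.29) were too flat for this. The genes nearest to Cpa3 were Coch (0.33), Ccl2 (0.41) and Zfp711 (0.43), and those nearest to Hdc were Gda (0.30), Chd7 (0.43) and Cd14 (0.50). Nearest to Ms4a2 were the monocyte chemokine receptor gene Ccr2 (0.10), Tctex1d1 (0.19) and Gzmb (0.20). Nearest to Mcpt8 were Ncf1 (0.28), Sema4a (0.34) and Hvcn1 (0.35). Prss34 had Glcci1 (0.058), Ypel2 (0.080) and Cx3cr1 (0.088), and Epx had Apba1 (0.059), Pdia5 (0.12) and the transcription factor gene Cebpa (0.12). Prg2 had Hp (0.26), Igsf6 (0.31) and Anxa3 (0.35), and Prg3 had Dgat2 (0.19), Slc40a1 (0.19) and Chil3 (0.23). Among the 8 members that vary, Prss34 and Epx were nearest to each other (0.27), followed by Ms4a2 and Epx (0.32) and Ms4a2 and Prss34 (0.46).

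Other genes of these cells were taken from lists by role. The share of all rows that passed was 7.73% in LSK, 3.02% higher and 4.71% lower in KO. In GMP it was 6.02%, 3.45% higher and 2.57% lower. The counts of the lists here and below stand against these shares. For mast cell effectors, 18 genes were measured. In KO LSK 2 rose and none fell (median difference -0.035), while in KO GMP the count was 2 up and 1 down (median -0.0042). The LSK rise of Srgn (0.46) lost its call whichever of the 8 arrays was dropped. The 7 measured chymase and tryptase genes of mature mast cells (Cma1, Mcpt1, Mcpt2, Mcpt4, Tpsab1, Tpsb2, Tpsg1) lay between 2.10 and 4.20 on all 8 arrays, below every array median, and limma called 0 of them in any of the 5 comparisons (0 of 35 tests at an unadjusted p under 0.05). Rab27b, which encodes a GTPase of granule release and is also used by platelets, stood at 6.69 and 6.24 in KO LSK, against 4.36 and 4.52 in Het LSK (2.03, adjusted p = 0.000460), and at 6.52 and 6.78 in KO GMP, against 3.39 and 3.92 in Het GMP (3.0, adjusted p = 7.55e-05). Gzmb, a granzyme gene, stood at 3.27 and 3.02 in KO GMP, against 4.18 and 5.22 in Het GMP (-1.55, adjusted p = 0.0134, and -1.43 with adjusted p = 0.106 without KO GMP replicate 2).

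The 14 measured basophil effector genes split, with 4 up and 5 down in KO LSK (median -0.37) and 3 up and 2 down in KO GMP (median -0.049). The largest difference was a fall. Ccl3, a chemokine gene that many leukocytes use, stood at 4.96 and 4.30 in KO LSK, against 9.44 and 10.46 in Het LSK (-5.32, adjusted p = 5.60e-05). Its values were 7.68 and 7.20 in KO GMP, against 8.16 and 8.75 in Het GMP (-1.01, adjusted p = 0.172), and the effects differed by 4.30 (adjusted p = 0.00466). The other genes that fell in KO LSK were Ifitm1 (-2.12, adjusted p = 0.000159), the interleukin 18 receptor genes Il18rap (-1.48, adjusted p = 0.00107) and Il18r1 (-1.19, adjusted p = 0.00161), and Cyp11a1 (-0.58, adjusted p = 0.0215, lost when KO LSK replicate 2 or either Het LSK array was dropped). Among genes that rose, Cd200r3, an activating receptor of basophils and mast cells, stood at 6.98 and 6.38 in KO LSK, against 2.47 and 2.56 in Het LSK (4.17, SE 0.32, adjusted p = 9.30e-05). Cd200r3 values were 4.13 and 3.03 in KO GMP, against 2.85 and 2.79 in Het GMP (0.76, adjusted p = 0.257, and 1.31 with adjusted p = 0.0260 when KO GMP replicate 2 was dropped). The effects differed by -3.41 (adjusted p = 0.00665), the direction seen for Cpa3. Lilrb4a, an inhibitory receptor gene, rose by 3.30 in LSK (adjusted p = 0.000203) and by 2.46 in GMP (adjusted p = 0.00126). Il4, the interleukin 4 gene, stood at 6.05 and 5.98 in KO LSK, against 4.56 and 4.66 in Het LSK (1.41, adjusted p = 0.00313). Il4 values were 5.20 and 5.21 in KO GMP, against 4.49 and 3.77 in Het GMP (1.07, adjusted p = 0.0152), which no longer passed when KO GMP replicate 1 (1.08, adjusted p = 0.0833) or 2 (1.07, adjusted p = 0.0976) was dropped. Of 5 eosinophil effector genes measured, none passed in LSK (0 at an unadjusted p under 0.05) and 1 fell in GMP, the adhesion receptor gene Adgre1. It stood at 4.02 and 3.29 in KO GMP, against 4.72 and 4.87 in Het GMP (-1.15, adjusted p = 0.0301), and it no longer passed when KO GMP replicate 2 (-0.78, adjusted p = 0.187) or either Het GMP array (-1.22, adjusted p = 0.130, and -1.07, adjusted p = 0.174) was dropped.

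**Figure D4:**
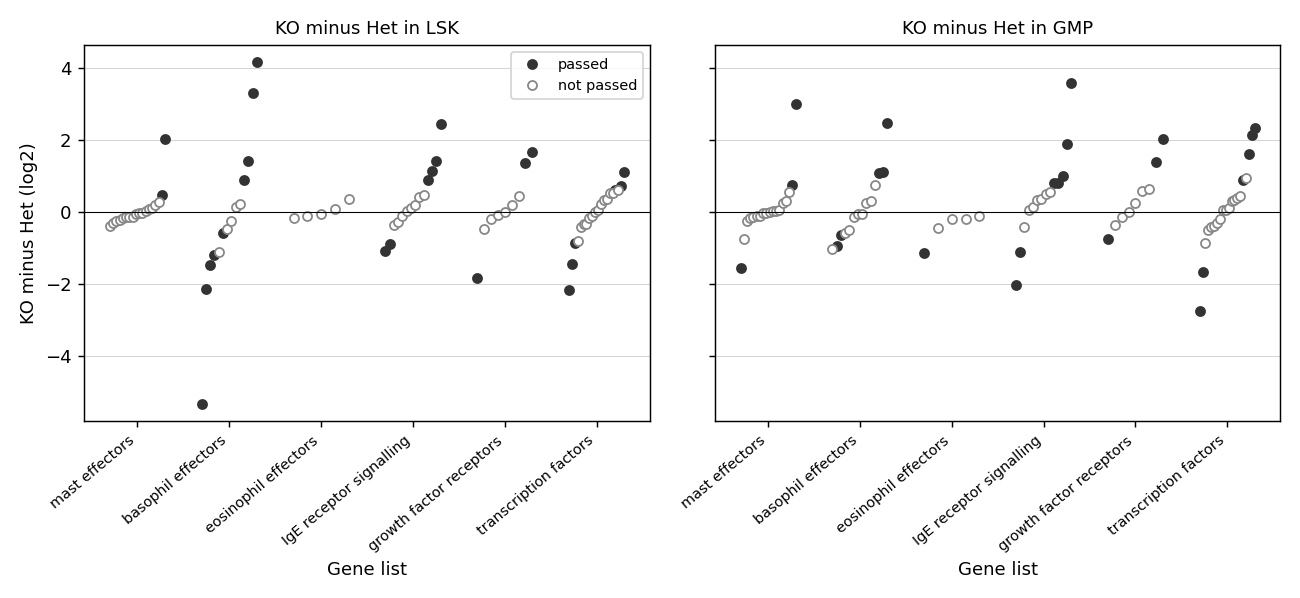
KO minus Het (log2) for every measured gene of 6 related lists, in LSK cells on the left and in GMP cells on the right; each point is a gene, sorted within its list, and filled points passed at an adjusted p under 0.05. Most mast cell effector genes lie near 0, while basophil effector and IgE receptor signalling genes spread to both sides.

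The machinery around the IgE receptor moved in both directions. Of its 14 measured genes, 4 were up and 2 down in KO LSK (median 0.14), and 5 were up and 2 down in KO GMP (median 0.43). Fcer1g, the signalling gamma chain that the IgE receptor shares with Fc gamma receptors, stood at 8.50 and 8.0 in KO GMP, against 10.21 and 10.33 in Het GMP (-2.02, SE 0.18, adjusted p = 0.000296). In KO LSK it stood at 7.79 and 7.43, against 8.64 and 8.71 in Het LSK (-1.07, adjusted p = 0.00793, and -1.03 with adjusted p = 0.0575 without Het LSK replicate 2). In KO GMP, the beta and gamma chain genes were thus both lower, and the alpha chain gene was too dim to read. Lat, an adaptor of receptor signalling that platelets and T cells also use, stood at 9.26 and 9.61 in KO GMP, against 5.72 and 6.01 in Het GMP (3.57, adjusted p = 2.73e-05), and rose by 1.42 in LSK (adjusted p = 0.00169). Lcp2, the adaptor SLP-76, rose by 1.15 in LSK (adjusted p = 0.00290) and by 0.99 in GMP (adjusted p = 0.00727). The GMP call was lost when KO GMP replicate 1 (0.96, adjusted p = 0.0553) or 2 (1.03, adjusted p = 0.0501) or Het GMP replicate 1 (0.91, adjusted p = 0.0771) was dropped. Fcgr2b, the inhibitory Fc gamma receptor gene, stood at 8.14 and 7.89 in KO LSK, against 5.72 and 5.43 in Het LSK (2.44, adjusted p = 5.60e-05).

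Among 9 measured growth factor receptor genes of these lineages, 2 were up and 1 down both in KO LSK (median -0.0034) and in KO GMP (median 0.26). The largest differences were those of Il7r, the interleukin 7 receptor alpha chain gene best known from lymphoid cells, and they ran in opposite directions. It stood at 5.93 and 4.98 in KO LSK, against 7.42 and 7.16 in Het LSK (-1.84, adjusted p = 0.00313), and at 5.58 and 5.30 in KO GMP, against 3.40 and 3.42 in Het GMP (2.03, adjusted p = 0.00206). The effects differed by 3.86 (adjusted p = 0.00225). The beta chain genes Csf2rb and Csf2rb2 rose in LSK. Csf2rb serves the interleukin 3, interleukin 5 and GM-CSF receptors, and Csf2rb2 the interleukin 3 receptor. Csf2rb stood at 9.16 and 8.57 in KO LSK, against 7.87 and 7.17 in Het LSK (1.35, adjusted p = 0.0122), which no longer passed when KO LSK replicate 1 (1.06, adjusted p = 0.0550) or Het LSK replicate 2 (1.0, adjusted p = 0.0768) was dropped. Csf2rb2 stood at 8.43 and 7.61, against 6.52 and 6.19 (1.66, adjusted p = 0.0134), which likewise needed KO LSK replicate 1 (1.26, adjusted p = 0.0566, when dropped) and Het LSK replicates 1 (1.83, adjusted p = 0.0502) and 2 (1.5, adjusted p = 0.101). In KO GMP, Csf2rb2 was also called higher, by 1.38. That limma call was lost with quantile normalization (adjusted p = 0.0536) and with all rows tested (adjusted p = 0.156). The Csf2rb2 difference was 1.15 without KO GMP replicate 1 and 0.98 without Het GMP replicate 2. Csf2rb was higher in KO GMP by 0.63, which passed with the 4 GMP arrays alone (adjusted p = 0.0459) but not in the main fit. These genes are close copies, and probes shared between them were not tested. Kit, the receptor for stem cell factor on which mast cells depend, did not pass (0.44, adjusted p = 0.132, in LSK and 0.59, adjusted p = 0.0548, in GMP). In GMP it passed with an intensity trend (adjusted p = 0.0143), with the 4 GMP arrays alone (adjusted p = 0.0427) and when either KO LSK array was dropped (adjusted p = 0.0389). The interleukin 3 receptor gene Il3ra did not pass (0.20, adjusted p = 0.442, in LSK and -0.35, adjusted p = 0.192, in GMP).

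Transcription factor genes of these lineages numbered 20, with 3 up and 3 down in KO LSK (median 0.028) and 4 up and 2 down in KO GMP (median 0.082). In KO LSK, Id2, an inhibitor of basic helix-loop-helix factors, stood at 3.29 and 4.51, against 5.94 and 6.18 in Het LSK (-2.16, adjusted p = 0.00342). Irf8, a factor of monocytes, fell by 1.45 (adjusted p = 0.00700, and -1.31 with adjusted p = 0.0609 when Het LSK replicate 1 was dropped) and Ikzf1 by 0.86 (adjusted p = 0.00311), while Tfec, a relative of the mast cell factor Mitf, rose by 1.10 (adjusted p = 0.00707). Gata1, which acts in mast cells, eosinophils, erythroid cells and megakaryocytes, rose by 0.72 in KO LSK. That limma call was lost with all rows tested (adjusted p = 0.120), with the replicate block (adjusted p = 0.0617) and when any LSK array was dropped. Gata1 stood at 6.79 and 7.18 in KO GMP, against 5.07 and 4.65 in Het GMP (2.13, adjusted p = 0.000174). Its cofactor gene Zfpm1, which encodes FOG-1, stood at 7.73 and 7.91, against 5.56 and 5.42 (2.33, adjusted p = 4.33e-05). Gata2 stood at 8.0 and 8.02 in KO GMP, against 6.09 and 6.70 in Het GMP (1.61, adjusted p = 0.00765, and 1.31 with adjusted p = 0.0739 without Het GMP replicate 1 and 1.60 with adjusted p = 0.0581 without KO GMP replicate 2). Cebpa, which acts in granulocyte and macrophage progenitors, stood at 6.84 and 6.32, against 8.26 and 8.23 (-1.67, adjusted p = 0.000487), and Irf8 stood at 6.02 and 5.27, against 8.28 and 8.49 (-2.74, adjusted p = 0.000258). Cebpe, a factor of neutrophils and eosinophils, did not pass in either cell type (0.21, adjusted p = 0.730, in LSK and 0.10, adjusted p = 0.906, in GMP) and was higher in GMP than in LSK by 3.04 in KO and by 3.15 in Het.

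**Figure D5:**
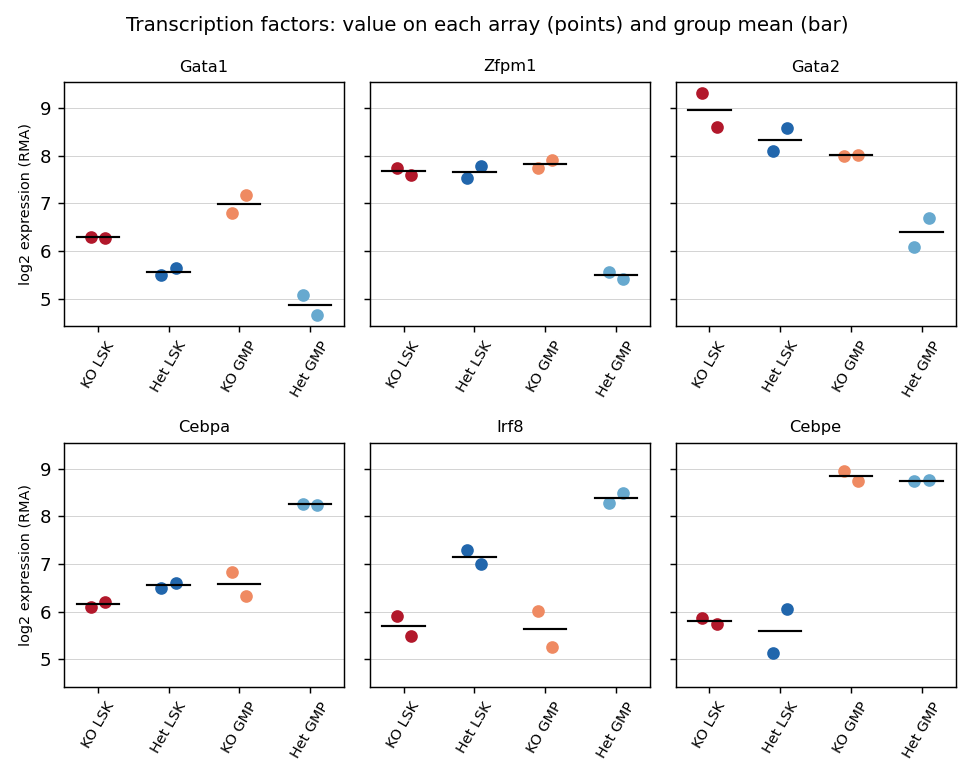
Log2 expression of 6 transcription factor genes on each array (points) with the group mean (bar), for KO LSK, Het LSK, KO GMP and Het GMP. Gata1, Zfpm1 and Gata2 are higher in KO GMP than in Het GMP, Cebpa and Irf8 are lower, and Cebpe follows the cell type.

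Markers of other lineages differed between the same groups, where 7.73% of all rows passed in LSK and 6.02% in GMP. The mean over 7 measured megakaryocyte genes was 8.36 and 8.13 in KO LSK, against 6.37 and 6.36 in Het LSK, and 8.68 and 9.03 in KO GMP, against 5.19 and 5.50 in Het GMP; 4 rose and 1 fell in LSK and 7 rose in GMP. The mean over 10 monocyte and dendritic cell genes was 5.01 and 4.89 in KO LSK, against 6.01 and 5.83 in Het LSK, and 6.04 and 5.42 in KO GMP, against 7.25 and 7.35 in Het GMP, with 4 lower and 1 higher in LSK and 7 lower and 1 higher in GMP. The mean over 7 erythroid genes was 5.48 and 5.54 in KO LSK, against 6.40 and 6.55 in Het LSK, and 5.72 and 5.66 in KO GMP, against 5.75 and 5.88 in Het GMP. B cell genes were lower in LSK: 6 of 7 fell (median difference -3.05), with means of 4.81 and 4.47 in KO LSK, against 7.08 and 6.64 in Het LSK. In GMP limma called 0 of 7 (2 at an unadjusted p under 0.05), with means of 4.27 and 4.27 in KO GMP, against 4.63 and 4.61 in Het GMP. Of 7 T and NK cell genes, 3 fell in LSK and 1 in GMP, with means of 3.72 and 3.85 in KO LSK, against 5.02 and 4.91 in Het LSK, and of 4.32 and 4.23 in KO GMP, against 4.41 and 4.33 in Het GMP. On every array, at least 6 of the 7 megakaryocyte and 5 of the 10 monocyte and dendritic cell genes lay above the array median. The part of these shifts in the values of the 10 members was not tested.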

How the data were processed

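RNA was measured on 8 arrays, 2 in each of 4 groups assigned from the titles in the labels. The authors deposited log2 expression values made with RMA, per the submitters' processing notes; its software, version and genome build were not given in the sources used here. The table held 35556 rows, of which 21789 carried exactly 1 gene symbol in the platform annotation; rows with several symbols (1621) or none (12146) were left out of the main fit. Of the 21789, 21698 had an Entrez number in RefSeq (GRCm38.p6), and updating changed 0 symbols. A gene with several rows was represented by its brightest row on average.

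Groups were compared with limma 3.58.1 (R 4.3.3), with 1 mean per group over all 8 arrays (4 residual and 4.83 prior degrees of freedom), two-sided, and Benjamini-Hochberg adjustment over the 21789 rows of each of 5 contrasts; a gene passed at an adjusted p under 0.05. With 2 arrays a group, the smallest p an exact permutation test allows is 0.333. The number of arrays limits the precision. The fit was tested on simulated data. The lists, and the rule for named genes (all members, up to 4 called genes with the largest differences per list and comparison or the 2 largest where none was called, not all of them printed, the genes of the sort gates, and the 3 nearest profiles), were chosen with earlier results of these data known. The 7 chymase and tryptase genes, the transcription factors plotted, and Camp, Ngp, Il3ra and Cebpe were picked after their values were seen. Alternatives were array medians subtracted, quantile normalization, all rows, dim rows left out, an intensity trend, 4 arrays at a time, the replicate number as a block, and each array left out. No batch is recorded in the labels.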

Additional observations from a re-analysis of the deposited data

Results flagged for a closer look

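The effect of the knockout differed between GMP and LSK for 5 members by limma's test of the difference itself (Benjamini-Hochberg adjustment). The GMP effect minus the LSK effect was -2.99 for Cpa3 (adjusted p = 0.00294), -2.41 for Ms4a2 (adjusted p = 0.00128), -1.91 for Hdc (adjusted p = 0.0402), -1.25 for Epx (adjusted p = 0.0235) and -1.08 for Prss34 (adjusted p = 0.0177). With each array left out in turn, the Cpa3 and Ms4a2 calls were kept, and those of Hdc, Epx and Prss34 were lost in 6, 4 and 4 of the 8 cases. Low levels of Ms4a2, Epx and Prss34 in Het LSK, near or below the array medians, left less room for a fall there. The part of this in these results was not tested. Ms4a2 was higher in KO LSK, by 0.51, which did not pass.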

How the results depend on the processing

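Of 730 values of single members under an alternative, 699 kept their side of the threshold and no called value changed sign; 27 lost and 4 gained a call. For many of these values the difference itself could not move, as where the dropped array lay outside the comparison or only the test changed. The Cpa3 call in GMP was also lost with array medians subtracted (0.88, adjusted p = 0.0529), with all rows tested (adjusted p = 0.165), with the 4 GMP arrays alone (adjusted p = 0.0839) and with the replicate number as a block (adjusted p = 0.0675). Ms4a2 in LSK passed with array medians subtracted (0.60, adjusted p = 0.0330) and without dim rows (adjusted p = 0.0330), a filter that 8 members passed and Fcer1a and Il5ra did not. With all rows tested, 2 members, Cpa3 and Ms4a2, passed the test of the difference between the effects, in place of 5. With each array left out in turn, 3 to 4 members passed for KO against Het in LSK, 4 to 5 in GMP, 2 to 5 for the difference between the effects, 5 for GMP against LSK in KO and 8 in Het. Over all rows, the corresponding counts ran from 994 to 1614 (main count 1684), from 634 to 1586 (1312), from 223 to 705 (499), from 579 to 1539 (1318) and from 2078 to 4486 (3813). Counts moved to 1071 in LSK and 691 for GMP against LSK in KO with only the 4 arrays of both groups, and with all rows tested to 784 for KO against Het in GMP, 182 for the difference between the effects and 756 for GMP against LSK in KO. Subtracting array medians shifted the median difference of all rows by 0.16 for GMP against LSK in Het and by -0.14 for the difference between the effects, and turned the share of higher calls to 52.4% in place of 39.0% in LSK, 67.1% in place of 45.1% for GMP against LSK in Het and 58.4% in place of 73.7% for the difference between the effects.

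The replicate numbers are not shown to pair arrays: the differences between replicate 1 and 2 correlated at -0.14 between KO LSK and Het LSK, at -0.025 between KO GMP and Het GMP, at 0.18 between KO GMP and KO LSK and at 0.13 between Het GMP and Het LSK, and whether LSK and GMP of a number share mice was not given. With the replicate block, 1570 rows passed in LSK, 1224 in GMP, 480 for the difference between the effects, 1216 for GMP against LSK in KO and 3602 in Het, and among members only the Cpa3 call in GMP changed. With several rows for none of the members, the mean over rows was not run. Differences between dim values (Fcer1a and Il5ra in all groups, Ms4a2 and Epx outside Het GMP, Prg3 in LSK, Prss34 in KO, Mcpt8 in KO LSK) may be understated.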
